A study of Mus musculus with 14 samples.

Results

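The H3K4me3 landscape of adult mouse cerebral cortex was described from the animals that drank saccharin, the vehicle control of a study of developmental nicotine exposure. The libraries were those labelled saccharin in either of the 2 deposited tables, 7 of 14 libraries in all. The postnatal table holds 4 of them, labelled as having received saccharin only after birth, and the prepost table holds 3, labelled as having received it before and after birth. All were of cerebral cortex; the animals were C57BL/6J mice, 3 months old, and no genetic change is stated. One treatment text is attached to all samples: pregnant mice were given the solution from conception, it was withdrawn from the offspring on day 21, and the animals were then left alone until day 90. It describes no separate course for the group exposed only after birth. The other 7 libraries came from nicotine-exposed animals and were used here only to ask whether a difference between the control sets was also present between them. The labels do not say whether replicates are separate animals, so the spread given below may be technical.

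Trimethylation of lysine 4 on histone H3 marks nucleosomes that flank the start sites of active and poised genes. It is laid down by SET1 and MLL methyltransferases, whose CXXC-domain partners bind unmethylated CG dinucleotides, and it is removed by KDM5 demethylases. Most CpG-island promoters carry the mark whether or not the gene is strongly transcribed. Broad domains of the mark are known at genes of cell identity, and in cortex the signal is a sum over neurons, glia and vascular cells.

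Each table lists 19203 rows, of which 14881 regions carry values, and the same regions are in both. Regions were 611 to 4705 bp wide (median 1583 bp); 11388 carried a gene name and 3493 did not. The tables do not say how a region was tied to its gene or how far it lies from the start site. The deposited values had been adjusted within each table, and the median region had a deposited value of 82.3 to 84.2 in a postnatal saccharin library but 53.0 to 54.2 in a pre- and postnatal one. Each library was therefore divided by its own median over all regions, and the quotient is called the level: a level of 1 is the median region of that library. Density is the level per kb of region and is the scale used to compare genes with each other.

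Postnatal saccharin libraries 1 and 2 differed from each other by 1.07 times the variance that counting would give if the deposited values were read counts, and libraries 3 and 4 by 1.01 times. The other pairs within the postnatal set stood at 2.43 to 2.85 times and pairs within the pre- and postnatal set at 1.69 to 2.72 times. Libraries 1 and 2, and 3 and 4, thus differed by about the sampling noise on that reading, and were averaged and counted as 1 sample each, giving 2 postnatal samples (called 1-2 and 3-4) and 3 pre- and postnatal samples. Sequencing depth is unknown, since the tables hold adjusted values only. The prepost and postnatal tables were adjusted separately and each holds 1 exposure course, so the table and the exposure cannot be told apart. No test was run between the sets: differences between them are given as descriptions.

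CG content of the promoter ordered the baseline signal. Of the genes with regions, 6287 had a single region and a single RefSeq promoter of 300 bases (250 before and 50 after the start). Their median density rose through every class of CG count, from 0.373 per kb at 0 to 4 CG (187 genes) through 0.568 at 15 to 19 CG (1143 genes) to 1.17 at 30 or more (1443 genes). The order of the classes was the same in all 5 saccharin samples. Across genes, Spearman's rho of CG count and density was 0.465 and 0.465 in the postnatal samples and 0.440, 0.438 and 0.441 in the pre- and postnatal ones. These points share libraries and base composition, and CG count also followed region width (rho 0.434). These 6287 promoters had a median of 22 CG, against 7 in all 32851 promoters of the table.

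**Figure D1:**
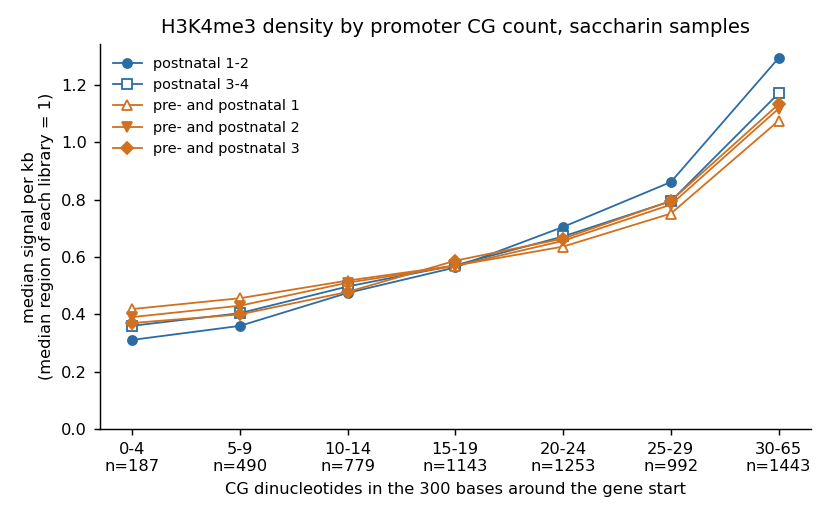
Median H3K4me3 level per kb (y axis, the median region of each library being 1 level) of genes grouped by the number of CG dinucleotides in the 300 bases around their start (x axis, n genes below), for the 2 postnatal and 3 pre- and postnatal saccharin samples. All 5 lines climb, from 0.311 to 0.419 in the class with the fewest CG to 1.07 to 1.29 in the class with the most.

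Promoters of 5 genes whose values recur below are shown to let the range of CG content be seen. They span one of the highest-level regions (Cdk13), one of the least variable regions (Hdac2), an oligodendrocyte gene that was lower in the pre- and postnatal set (Nkx6-2), a neuronal gene (Elavl3) and a skeletal muscle gene (Ckm). The sequences are RefSeq's for GRCm38.p6, 5′ to 3′ along the gene, with each CG in capitals; a CG reads the same on both strands, and 94.6% of all promoters of this length hold at least 1. The regions themselves are given in mm9, the build named in the submitters' processing notes, so the 2 sets of coordinates are not comparable.
Cdk13, chr13:17805048-17805347, minus strand, 52 CG: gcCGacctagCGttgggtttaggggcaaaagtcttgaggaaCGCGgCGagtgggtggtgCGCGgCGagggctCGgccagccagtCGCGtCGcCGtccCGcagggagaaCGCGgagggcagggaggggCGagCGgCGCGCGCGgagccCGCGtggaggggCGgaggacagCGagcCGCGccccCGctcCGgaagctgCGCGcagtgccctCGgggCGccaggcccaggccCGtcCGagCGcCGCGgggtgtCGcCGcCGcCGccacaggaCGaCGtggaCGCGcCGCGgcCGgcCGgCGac
Hdac2, chr10:36974294-36974593, plus strand, 36 CG: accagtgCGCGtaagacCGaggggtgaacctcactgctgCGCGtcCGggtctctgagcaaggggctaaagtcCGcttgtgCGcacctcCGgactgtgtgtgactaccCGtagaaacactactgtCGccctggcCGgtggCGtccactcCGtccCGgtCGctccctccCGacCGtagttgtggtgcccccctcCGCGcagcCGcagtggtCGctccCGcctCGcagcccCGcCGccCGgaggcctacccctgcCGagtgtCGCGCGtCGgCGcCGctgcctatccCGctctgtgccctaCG
Nkx6-2, chr7:139582748-139583047, minus strand, 32 CG: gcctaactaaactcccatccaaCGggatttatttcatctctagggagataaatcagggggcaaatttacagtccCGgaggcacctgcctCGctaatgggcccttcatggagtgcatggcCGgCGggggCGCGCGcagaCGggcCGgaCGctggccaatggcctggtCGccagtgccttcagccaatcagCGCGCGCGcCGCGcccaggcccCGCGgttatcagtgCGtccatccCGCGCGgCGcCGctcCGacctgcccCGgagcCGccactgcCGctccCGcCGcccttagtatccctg
Elavl3, chr9:22051974-22052273, minus strand, 29 CG: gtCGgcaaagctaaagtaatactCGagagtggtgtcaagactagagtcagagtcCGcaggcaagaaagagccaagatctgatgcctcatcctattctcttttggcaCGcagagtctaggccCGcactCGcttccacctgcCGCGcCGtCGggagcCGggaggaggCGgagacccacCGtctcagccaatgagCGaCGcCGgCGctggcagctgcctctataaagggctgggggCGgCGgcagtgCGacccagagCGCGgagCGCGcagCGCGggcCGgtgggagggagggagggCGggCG
Ckm, chr7:19410844-19411143, plus strand, 7 CG: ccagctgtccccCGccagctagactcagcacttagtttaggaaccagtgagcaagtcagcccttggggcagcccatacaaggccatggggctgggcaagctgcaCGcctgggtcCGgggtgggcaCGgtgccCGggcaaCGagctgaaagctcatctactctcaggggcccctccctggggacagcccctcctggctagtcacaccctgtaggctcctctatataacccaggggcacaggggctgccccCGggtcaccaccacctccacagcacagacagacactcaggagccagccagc
At least as many CG as in the Cdk13 promoter are held by 0.575% of all promoters, as in Hdac2 by 6.23%, as in Nkx6-2 by 9.52%, as in Elavl3 by 12.9% and as in Ckm by 52.1%. In density the genes followed a similar but not identical order: 3.08 per kb for Cdk13, 1.76 for Hdac2, 1.45 for Elavl3, 0.422 for Nkx6-2 and 0.219 for Ckm. Nkx6-2 had a lower density than Elavl3 with more CG in its promoter.

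Apart from Chl1, Mdga2 and Cdk5rap2, which are described below with the regions that differed most, the highest levels at named genes, predicted ones aside, were those of Cpeb2 and Cdk13. Cpeb2, which encodes a protein that controls mRNA polyadenylation and translation (chr5:43623486-43627868), had levels of 13.8 and 12.2 in the postnatal samples and 10.6, 11.2 and 10.7 in the pre- and postnatal ones. Cdk13, which encodes a kinase of the RNA polymerase II tail (chr13:17894545-17898002), had levels of 11.7 and 10.3, then 10.4, 10.7 and 9.83. Yy1, which encodes a zinc finger transcription factor (chr12:110030014-110033563), had levels of 10.1 and 9.18, then 9.92, 9.48 and 9.79. The samples of the sets overlapped at Cdk13 and Yy1 and did not at Cpeb2, whose postnatal level was 1.20-fold higher. Irf2bp2, a transcriptional corepressor gene, Arid1b, a chromatin remodeller gene, Zswim6 and Klf13 stood close behind.

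The 10 widest regions at named genes ran from 4198 bp to 4575 bp. Irf2bp2 was the widest, followed by Spred1, which restrains Ras signalling, at 4440 bp, Cpeb2 at 4382 bp, Igf1r, a growth factor receptor gene, at 4347 bp and Nrxn2, a presynaptic adhesion gene, at 4339 bp. Density rose with width from 0.188 per kb in the narrowest 10% of regions to 1.10 in the widest 10% (rho of width and density 0.645 across 14881 regions, which share the libraries). The share with a gene name was 47.4% in the narrowest 10% and 80.0% in the widest. Leaving aside the regions counted below as different between the sets, the highest densities at named genes were at Eif4e, the cap-binding translation factor gene (3.54 per kb), Wrnip1 (3.33), Lonrf1 (3.17), Cdk13 (3.08) and Kdm5b, the gene of an H3K4 demethylase (3.04).

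The least variable of the regions at or above the median level were at Hdac2, Hint1, Sipa1l1, Tyro3 and Igfbp3. Hdac2, a histone deacetylase gene (chr10:36693428-36695718), had levels of 4.03 and 4.00 in the postnatal samples and 3.98, 4.11 and 4.01 in the pre- and postnatal ones. Hint1, a nucleotide hydrolase gene (chr11:54679460-54680984), had levels of 2.80 and 2.81, then 2.79, 2.76 and 2.82. The sets overlapped at both genes, and their means stood within 1.01-fold of each other. These regions were picked for their small spread, so the closeness is a description.

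Gene lists differed widely in density. A listed gene with several regions was represented by its region with the highest level. The highest medians were those of 3 lists: the 10 heat shock and unfolded protein response genes with a region (of 18 listed) had a median density at percentile 76.7 of all regions, the 16 genes of H3K4 methylation enzymes and partners (of 22) at 75.3, and the 19 circadian clock genes (of 22) at 71.9. Clock itself, which encodes a core activator of the daily cycle, reached percentile 99.5, Cry1, a repressor of that cycle, 96.1, and Hspa4, an HSP110 chaperone gene, 96.0. The 68 cytosolic ribosomal protein genes had a median at percentile 54.1, the 27 housekeeping genes (of 29) at 53.7 and the 69 mitochondrial respiratory chain genes at 49.2, all near the median region. A gene without a named region is not used here and says nothing about the mark at that gene.

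Marker lists of brain cell types ran from percentile 24.5 to 59.7. The 18 excitatory and layer markers with a region (of 24) had a median at percentile 56.7, and Cux1, an upper-layer homeobox gene, had a density of 1.34 per kb. The 18 pan-neuronal markers (of 20) had a median at 48.3, with densities of 1.24 per kb at Rbfox3, which encodes NeuN and is listed under an older symbol, and 1.45 per kb at Elavl3, an RNA-binding protein gene. Another Rbfox3 region (chr11:118429951-118432059) had a density of 0.653 per kb. The 9 astrocyte markers (of 17) stood at percentile 59.7, the 14 oligodendrocyte and precursor markers (of 21) at 34.1, the 17 GABAergic interneuron markers (of 26) at 30.9, the 11 endothelial and mural markers (of 20) at 28.0 and the 5 microglia and macrophage markers (of 17) at 24.5. Excitatory and pan-neuronal markers thus carried signal near that of the median region. Their medians were above those of the striatum (33.1), thalamus (35.2) and hippocampus (32.0) lists, and the GABAergic median was below all of these. Whether list density can tell cortex from other brain regions was not tested. In bulk tissue, fewer cells of a type and less of the mark per cell cannot be told apart.

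Developmental regulators and genes of other organs were at the bottom. Of 48 developmental homeobox and GATA genes, 23 had a region, with a median at percentile 10.8, and 19 of the 23 were in the lowest 25% of densities; En2, a midbrain and hindbrain homeobox gene, stood highest at percentile 63.5. Of 42 genes of other organs, 6 had a region, with a median at percentile 7.27. Of these, Krt10, a keratin of the skin, stood highest at 42.1, and Sycp1, a meiotic chromosome gene, lowest at 0.927. The 11 striatum markers (of 17) had a median at percentile 33.1, the 5 thalamus markers (of 11) at 35.2 and the 3 hippocampus markers (of 10) at 32.0; Foxp1, a transcription factor gene on the striatum list, reached 74.6.

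**Figure D2:**
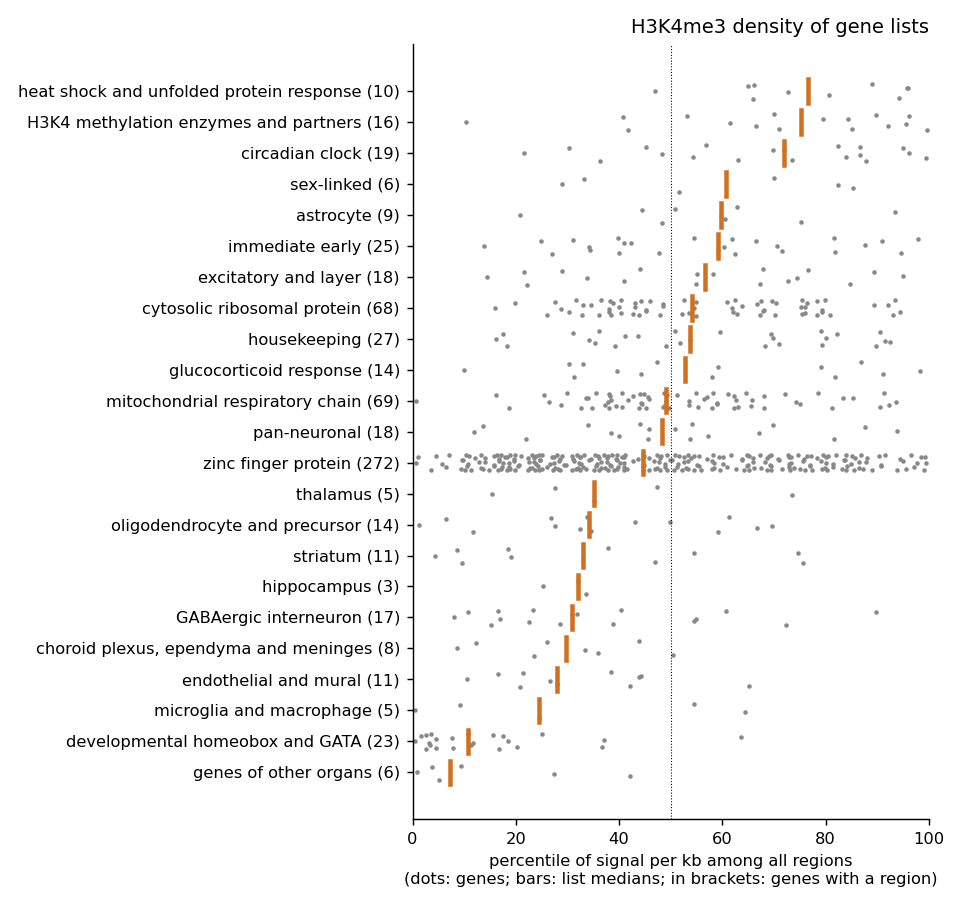
Percentile of H3K4me3 density among all 14881 regions (x axis) for the genes of each list (grey dots) and the list median (orange bar), averaged over the saccharin sets; the number of genes with a region is in brackets. Heat shock genes, H3K4 enzymes and clock genes lie furthest right, at medians of 76.7, 75.3 and 71.9, and developmental homeobox genes and genes of other organs furthest left, at 10.8 and 7.27.

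Genes on the X chromosome had a lower density than autosomal genes in each sample. The ratio of the medians (303 X-linked and 10252 autosomal regions with a gene) was 0.476 and 0.507 in the postnatal samples and 0.675, 0.569 and 0.549 in the pre- and postnatal samples, so the sets did not overlap. In the nicotine samples it was 0.531 and 0.456 in the postnatal set and 0.536, 0.630 and 0.605 in the other. Xist, whose RNA coats the inactive X chromosome in females (chrX:100676468-100678228), had levels of 0.387 and 0.590, then 0.766, 1.23 and 0.551, and the sets overlapped. Kdm6a, an X-linked H3K27 demethylase gene, had the highest level of the 6 sex-linked genes with a region, and its 2 postnatal levels were 4.84 and 3.37 against 2.98, 3.52 and 3.22. Within each set, samples in which the 15 strongest regions held a larger share of signal (given below) had the higher ratio. The order was reversed for pre- and postnatal saccharin libraries 2 and 3. X-linked regions with a gene were also weaker, with a median level of 0.609 against 1.28 on the autosomes. The labels used here do not give the sex of the animals. The parts of sex, of that share and of level in the ratio were not tested.

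The ranking of regions was close between the control sets. Spearman's rho of the set means was 0.974 over all 14881 regions and 0.967 over the 13267 with a mean level of at least 0.25, the floor used below; both sets share the region list and its widths. Of the top 10% of regions by level in each set, 87.6% were shared. Of the 13267 regions, 93.3% differed by less than 1.5-fold between the set means, and the median absolute log2 difference was 0.20. Between single samples it was 0.19 within the postnatal set, 0.21 to 0.26 within the pre- and postnatal set, and 0.19 to 0.32 across the sets. The difference leaned with level: the median log2 difference, pre- and postnatal minus postnatal, went from 0.17 in the lowest 10% by level to -0.14 in the top 10%, with -0.06 over all 13267 regions.

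A region was counted as different where its samples in the sets did not overlap and the difference of mean log2 levels was at least 2-fold. By that rule 221 of 13267 regions were higher in the pre- and postnatal set (1.67%) and 1 was lower (0.00754%), an unnamed region on chromosome 13. At 1.5-fold, 517 were higher (3.9%) and 148 lower (1.12%), a share of higher regions of 77.7%; with quantile normalization the share was 55.7%, and with upper-quartile scaling 93.3%. Without the 2-fold condition, samples did not overlap at 4034 regions (30.4%), 1363 of them higher (10.3%) and 2671 lower (20.1%). The count of 221 depended on the samples used: it was 146 without postnatal sample 1-2 and 479 without 3-4. It was 192, 277 and 320 without pre- and postnatal libraries 1, 2 and 3. With fewer samples the no-overlap condition is also easier to meet. The 1 lower region became 3 to 13 when any 1 sample was left out. At 1.5-fold, the 517 higher regions became 1249 without postnatal sample 3-4 and 913 without pre- and postnatal library 3, and the 148 lower ones 444 and 356, with 224 without pre- and postnatal library 1.

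**Figure D3:**
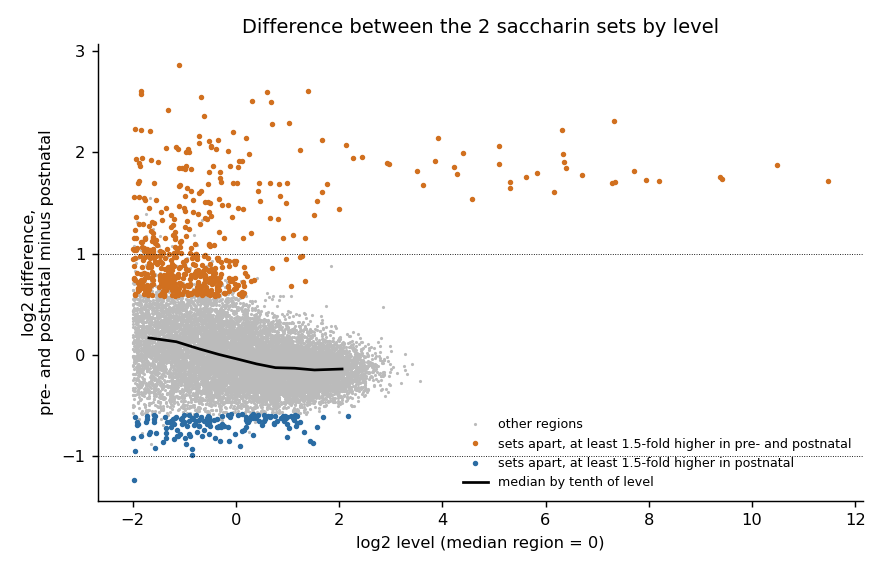
Log2 difference between the saccharin sets (y axis, pre- and postnatal minus postnatal) against log2 level (x axis, the median region being 0) for the 13267 regions above the floor. The black line gives the median in 10 groups by level and falls from 0.17 to -0.14; orange dots are the 517 regions at least 1.5-fold higher in the pre- and postnatal set and blue dots the 148 at least 1.5-fold lower, with dotted lines at 2-fold, and the orange dots include the far right of the plot.

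The strongest regions of the tables were almost all in the higher group. Of 32 regions with a mean level of at least 10, 30 were counted as higher, with log2 differences of 1.54 to 2.31 (median 1.79). The other 2 were Cpeb2 and Cdk13. The mean level is taken over both sets, so high pre- and postnatal values also help a region to reach 10. Some of the 30 were under 10 in the postnatal mean, such as Cdk5rap2 (6.29) and Mdga2 (8.71). Of the 30, 26 had no gene name and 17 started below position 4000000 of their chromosome, 14 of those on chromosome 9. Mouse chromosomes have their centromere at the low-numbered end, next to satellite repeats. Their median level was 21.0 and 43.4 in the postnatal samples and 149.0, 87.5 and 100.8 in the pre- and postnatal ones. Of all signal in a postnatal saccharin library, the 15 strongest regions held 8.30 to 8.65% (libraries 1 and 2) or 17.8 to 19.5% (3 and 4). In the pre- and postnatal libraries that share was 39.9%, 28.8% and 33.1%.

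The 4 named regions in that group were 845 to 1569 bp wide. All 30 regions of the group had a density of at least 4.84 per kb, against at most 3.08 at Cpeb2 and Cdk13. How far the named ones lie from the start of their gene, and how reads were shared among repeats, is not given. Chl1, which encodes a neural cell adhesion molecule, had a region of 845 bp (chr6:103598740-103599585) with levels of 39.6 and 66.7 in the postnatal samples and 386, 186 and 230 in the pre- and postnatal ones. The sets did not overlap, and the difference was 4.95-fold. Mdga2, which encodes a synaptic adhesion regulator (chr12:68159849-68161418), had levels of 4.88 and 12.5, then 36.0, 22.2 and 28.7. Cdk5rap2, a centrosome gene (chr4:70038789-70039851), had levels of 4.17 and 8.42, then 26.7, 17.3 and 24.3. In the pre- and postnatal samples all 3 regions were above Cdk13, whose region is 3457 bp wide; in the postnatal samples Cdk5rap2 was below it in both and Mdga2 in 1-2. Leaving out postnatal sample 1-2 took the log2 difference of Mdga2 from 1.86 to 1.18, and leaving out 3-4 took it to 2.54.

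The same order of samples ran through most of the 221 regions. Postnatal sample 3-4 was above 1-2 in 212 of them (95.9%, against 43.5% of all 13267), and pre- and postnatal library 1 was the highest of its set in 173 (78.3%, against 35.5%). These are the samples in which the 15 strongest regions took the larger share of signal. The part of that share in the other regions was not tested. Most of the 221 were weak: their median level was 0.605 against 1.17 in all 13267 regions, and 32.1% were at or above the median region against 56.1%. Their median was 0.207 and 0.392 in the postnatal samples and 1.29, 0.703 and 0.729 in the pre- and postnatal ones. The floor of 0.25 is on the mean of both sets, so regions low in the postnatal set could pass it through the other set. The 221 were also narrower, with a median width of 1143 bp against 1661 bp, and 36.2% were under 1000 bp wide against 2.63%. A gene name was carried by 43.9% of them against 79.6%, and 12.7% started below position 4000000 against 1.09%.

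A smaller group of 25 regions, picked out after the values were seen, had library 1 as the lowest pre- and postnatal sample. None of the 25 started below position 4000000, which is near the share of 1.09% in all 13267 regions. Of the other 196 regions counted as higher, 28 (14.3%) did. A gene name was carried by 16 of the 25 (64.0%, against 79.6%), and 14 (56.0%, against 2.63%) were under 1000 bp wide. Acacb, which encodes a mitochondrial acetyl-CoA carboxylase (chr5:114622814-114623468), had levels of 0.444 and 1.00, then 3.06, 3.85 and 3.17. Auts2, a gene of neuronal development (chr5:131995301-131996195), had levels of 0.300 and 0.554, then 1.79, 2.02 and 1.83, a difference of 4.42-fold. Izumo1, which encodes the sperm protein that binds the egg (chr7:52878602-52879553), had levels of 0.261 and 0.412, then 1.43, 1.61 and 1.73. The 3 regions were 654 to 951 bp wide, and in each the pre- and postnatal samples lay close together and above both postnatal ones. Others of the 25 were more spread. In the pre- and postnatal samples Ncoa1 had levels of 0.335, 0.364 and 0.735, and an unnamed region on chromosome 17 had 2.77, 4.77 and 6.09.

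Others among the 10 named regions with the largest differences in this direction were Rin2, a Rab5 exchange factor gene, Ncoa1, a nuclear receptor coactivator gene, Ano2, a calcium-activated chloride channel gene, Plxdc2, Litaf and Sp110. Rin2 (chr2:145691855-145692731) had the largest, with levels of 0.150 and 0.261, then 1.10, 1.12 and 1.09, or 5.13-fold. Litaf, an endosomal protein gene (chr16:10974838-10975772), had levels of 0.979 and 2.63, then 9.29, 5.38 and 6.36. Its log2 difference was 2.07, 1.37 without postnatal sample 1-2 and 2.78 without 3-4. Sp110 belongs to a cluster of closely related genes, and how reads were shared among copies is not given in the sources used here, so its values are uncertain. Polr2a alone of the 27 housekeeping genes with a region and Sox5 alone of the 18 layer genes were counted, against 1.67% of all regions. Polr2a, which encodes the largest subunit of RNA polymerase II, had levels of 0.175 and 0.244, then 0.471, 0.440 and 0.437 in a region of 1198 bp. Its mean level of 0.329 was near the floor of 0.25. Its log2 difference of 1.05 became 0.89, under 2-fold, when centred by level. Sox5, a deep-layer neuron gene, had levels of 0.231 and 0.511, then 0.571, 0.996 and 0.767.

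In the other direction no named region passed 2-fold; the following were chosen after their values were seen, from the largest differences at 1.5-fold. Cep72, a centrosome gene (chr13:74199078-74200248), had levels of 0.893 and 0.600, then 0.334, 0.322 and 0.435, so that the postnatal mean was 1.98-fold higher. Ctso, which encodes cathepsin O (chr3:81736253-81737257), had levels of 0.758 and 0.687, then 0.237, 0.508 and 0.417. The 5 largest log2 differences were -0.98 at Cep72, -0.95 at Insc, -0.93 at Ctso, -0.92 at Lsm4 and -0.90 at Col23a1. Col23a1, a transmembrane collagen gene (chr11:51102881-51104387), had levels of 1.46 and 1.31, then 0.629, 0.829 and 0.763. The 148 regions had a gene name in 77.0% of cases, close to the 79.6% of all regions, and a median width of 1338 bp.

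**Figure D4:**
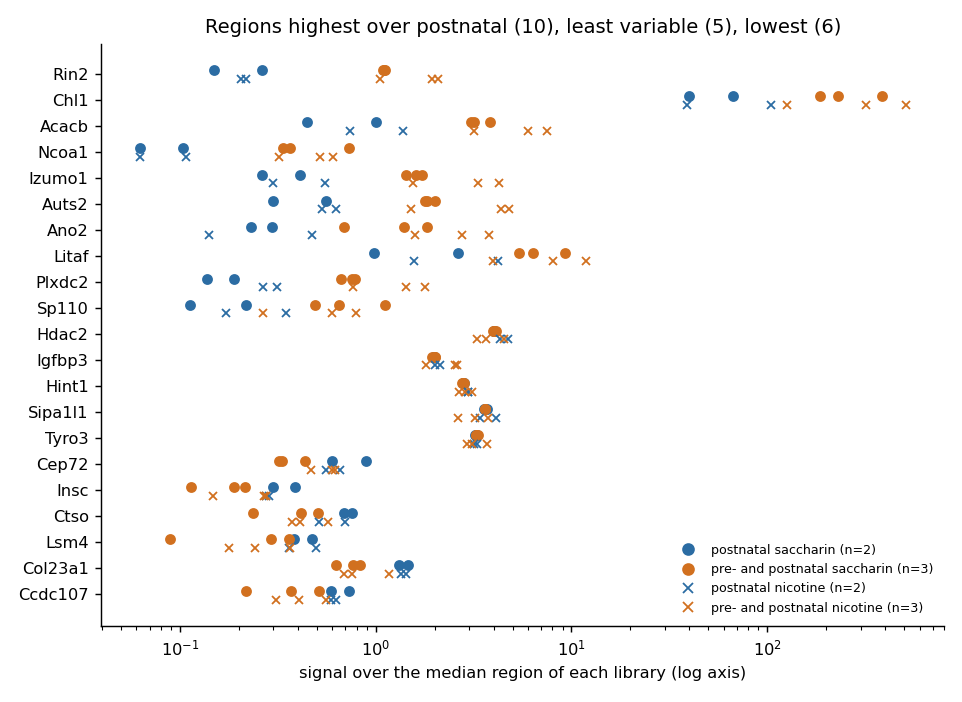
Level of named regions (x axis, log scale, the median region of each library being 1) in each saccharin sample (dots) and nicotine sample (crosses), with postnatal samples in blue and pre- and postnatal ones in orange. At the 10 top regions, from Rin2 to Sp110, the orange dots lie to the right of the blue ones; at Hdac2, Igfbp3, Hint1, Sipa1l1 and Tyro3 they coincide; at the 6 lowest, from Cep72 to Ccdc107, they lie to the left.

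Nicotine libraries of the same tables repeated the direction in most counted regions. The nicotine pre- and postnatal mean was above the nicotine postnatal mean in 218 of the 221 regions (98.6%, against 36.4% of all 13267 regions). The nicotine difference had the direction of the saccharin difference in 75.2% of all 13267 regions. At 96 of the 221 (43.4%, against 32.1% of all regions) the nicotine samples also did not overlap between the sets. Of the 148 regions that were lower, 136 (91.9%) shared the direction and 12 (8.11%) were higher, against the same 36.4%. In 61 of the 148 (41.2%, against 7.87% of all regions) the nicotine difference was at least 1.5-fold lower. At Chl1 the nicotine levels were 105 and 38.9 in the postnatal samples and 126, 512 and 321 in the pre- and postnatal ones, and at Auts2 0.534 and 0.624, then 1.52, 4.37 and 4.78. Cep72 had nicotine levels of 0.556 and 0.661, then 0.465, 0.599 and 0.621, which overlapped. Within the nicotine set, postnatal sample 1-2 was above 3-4 in 191 of the 221 (86.4%, against 54.3% of all regions), and pre- and postnatal library 1 was the lowest of its set in 193 (87.3%, against 28.8%). The 15 strongest regions took 25.5% and 24.9% of the signal in postnatal nicotine libraries 1 and 2 and 9.41% and 10.7% in 3 and 4. They took 19.1% in pre- and postnatal nicotine library 1 and 49.7% and 41.9% in 3 and 4. The order of samples thus followed that share in the nicotine libraries as in the saccharin ones, and its part in the 221 regions was not tested. The saccharin and nicotine libraries of a table share its adjustment, so here too the table and the exposure cannot be told apart.

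Marker lists were compared by their medians and counts. Of all 13267 regions, 59.6% were lower in the pre- and postnatal set and 40.4% higher. The 14 oligodendrocyte and precursor markers had a median log2 difference of -0.21, against -0.06 over all 13267 regions, and 10 of the 14 were lower in the pre- and postnatal set, 5 of them without overlap of samples (20.1% of all regions were lower without overlap). Olig1, a transcription factor gene of that lineage (chr16:91269519-91271352), had levels of 1.79 and 1.61, then 0.884, 1.18 and 1.39. Nkx6-2, a homeobox gene of myelinating cells (chr7:146767060-146769105), had levels of 1.01 and 1.04, then 0.570, 0.903 and 0.633. Mbp, the myelin basic protein gene, chosen after its values were seen, had levels of 1.254 and 1.047, then 0.921, 0.778 and 0.717. None of the 12 markers above the floor passed the 1.5-fold rule, and Olig2 went the other way with a log2 difference of 0.17. Relative to the median of all regions, the list's median was -0.14 to -0.43 under the scalings tried. In the nicotine libraries its median difference was -0.08, with Mbp at -0.06, against -0.13 over all 13267 regions. Neither the list nor Mbp was thus below that background.

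Pan-neuronal markers had a median difference of 0.03, with 10 of 18 higher in the pre- and postnatal set, 6 of them without overlap, against 10.3% of all regions; 2 were lower without overlap, against 20.1%. Excitatory and layer markers had 0.04, with 12 of 18 higher. Map2, a dendritic microtubule gene listed as Mtap2, had levels of 0.206 and 0.270, then 0.373, 0.496 and 0.325, and Camk2a, a synaptic kinase gene, 0.734 and 0.852, then 1.24, 1.06 and 1.10. Elavl3 went the other way, with levels of 4.74 and 3.52, then 3.18, 3.38 and 3.48. The 9 astrocyte markers had a median of -0.17, with 6 lower, 5 of them without overlap against 20.1% of all regions, and a median of -0.06 when centred by level. Fgfr3, a growth factor receptor gene of astrocytes, had a log2 difference of -0.53 and Slc1a2, the main glutamate transporter gene, -0.28. GABAergic markers had a median of -0.01 and striatum markers of -0.03, and the sign of both relative to all regions changed with quantile normalization and with centring by level. Immediate early genes had a median of -0.11, with 18 of 25 lower against 59.6% of all regions. The list's median was -0.05 relative to all regions and -0.01 when centred by level. Junb, the member with the largest difference, had levels of 3.26 and 2.27, then 1.80, 1.75 and 1.89.

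**Figure D5:**
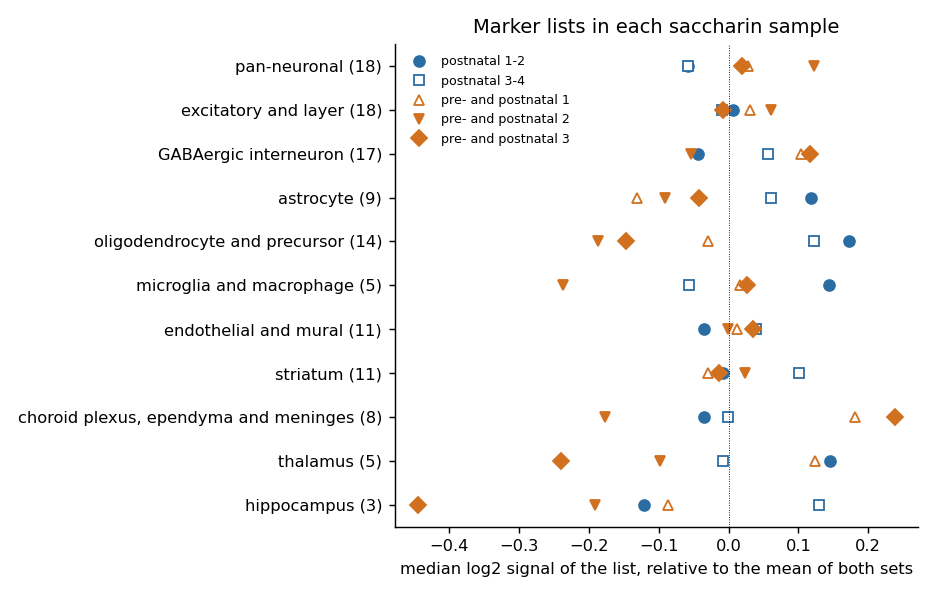
Median log2 level of each marker list in each saccharin sample (x axis), relative to the mean of the sets, with the number of genes with a region in brackets. For the oligodendrocyte and astrocyte lists the blue postnatal symbols lie to the right of all 3 orange pre- and postnatal ones; for the pan-neuronal list they lie to the left, and for the remaining lists the symbols of the sets mix.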

How the data were processed

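H3K4me3 ChIP-seq libraries of cortex were made from tissue samples of 50 mg and sequenced for 36 cycles, per the labels' protocols. The authors deposited 2 tables of signal per region (processed read counts that are no longer whole numbers), each adjusted on its own. The submitters' processing notes name edgeR and mm9; neither an aligner nor a peak caller is given in the sources used here. No count test was run on the adjusted values. Rows with empty values (4322 per table, repeats of regions with values) were left out. Regions were joined by position, each library was divided by its median, and log2(level + 0.02) was compared between set means, with a floor of 0.25 on the mean level. Genes were matched by transcript to RefSeq GRCm38.p6 names (11224 of 11388 regions). Named regions were the 10 highest in level, width, density and difference, the 5 least and most variable, the highest 2 and most different 2 of each list, and the sex-linked genes. The members and lists were chosen with earlier results of these data known. Computation used Python 3.11.15, pandas 2.3.3 and scipy 1.17.1.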

Additional observations from a re-analysis of the deposited data

How the results depend on the processing

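The 221 regions higher in the pre- and postnatal set numbered 541 with no floor on level, 132 with a floor of 0.5, 144 with quantile normalization and 517 at 1.5-fold, and 146 to 479 when 1 sample was left out. The lower regions, 1 as reported, numbered 0 with a pseudocount of 0.1, 3 with no floor, 0 with a floor of 0.5, 21 with quantile normalization, 6 with centring by level and 148 at 1.5-fold, and 3 to 13 when 1 sample was left out. The share of counted regions with the same direction in nicotine, 98.6%, was 100% with a pseudocount of 0.1, 89.3% with no floor, 95.9% when scaled by the sum without the 15 strongest regions, 92.9% at 1.5-fold and 93.8 to 98.98% when 1 sample was left out. The rank correlation stayed within 0.950 to 0.974 under the alternatives run. The causes of these shifts were not tested. No paired analysis was possible because the replicate numbers the groups share join samples of separately adjusted tables and the results come from no test. The values are adjusted, so the comparison with counting noise behind the averaging of postnatal libraries holds only if they can be read as counts; with these libraries one by one, 216 regions were higher and 1 lower. Depth is unknown, and 1614 regions lie under the floor.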
